A study of Mus musculus with 7 samples.

Results

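Transfer RNA (tRNA) genes that lie in lamin-associated domains (LADs) of mouse embryonic fibroblasts were described, domain by domain and anticodon by anticodon. LADs are long stretches of chromatin that contact the nuclear lamina, the protein meshwork under the inner nuclear membrane. A tRNA gene was a member when it was annotated as tRNA by RefSeq on chromosomes 1 to 19 and had its midpoint inside a domain of the deposited wild-type list. There were 27 members among 386 autosomal tRNA genes. Another 5 autosomal rows of the gene table were left out because of their listed positions, as given with the processing. Members were thus chosen by the measured Lamin B1 domains themselves, so membership, depth inside a domain and distance to a border are descriptions here, with no test.

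The cells carry the label iMEF, and the series describes separately derived fibroblast lines from a single mouse colony. CUT&RUN was used, in which an antibody brings a nuclease to its target on chromatin and the cut fragments are sequenced. Of 7 libraries, 2 were for Lamin B1 and 2 for the IgG control, 1 each for H3K9me2 with the antibodies ab1220 and 39041, and 1 for H3K14ac. Each reaction held 500000 cells, and no treatment, genotype contrast or time course is labelled beyond the word wild type in the name of the domain list. The values below rest on the positions of the 1128 autosomal domains of that list, taken as the merged Lamin B1 result. The list holds 1 merged set, so no value has a replicate error, the read depth is unknown, and the cell type could not be checked against marker genes. Transcription of the tRNA genes was not measured.

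Transfer RNAs carry amino acids to the ribosome and read codons through their anticodon. Their genes are short and are transcribed by RNA polymerase III from promoter elements inside the gene, the A box and the B box, which the factor TFIIIC binds before TFIIIB places the polymerase. Mammalian genomes hold many copies for most anticodons, a large part of them packed in clusters, and tRNA genes have been studied as insulators and chromatin boundaries. In the symbols used here, the capital letter after n-T is the amino acid in the usual code, the lower-case letters are the anticodon in DNA letters, and the number tells copies apart.

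Members were few: 27 of 386 autosomal tRNA genes (6.99%) had their midpoint in a LAD. Over all 46714 autosomal genes of the table the share was 31.3%, and over the 20560 protein-coding genes it was 23.0%. Long non-coding RNA genes were at 28.0% and pseudogenes at 51.0%. Among other classes of short RNA genes the share was 18.4% of 1136 microRNA genes, 47.1% of 1276 snoRNA genes and 39.5% of 924 snRNA genes. The 60 genes with the biotype ribosomal RNA were at 6.67%, a share that leaves out copies annotated as pseudogenes.

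The share depended on whether a tRNA gene had another close by. Genes were chained into a locus where neighbouring midpoints lay at most 50 kb apart, which gave 123 loci. Of the 92 tRNA genes standing alone, 23 were in a LAD (25%), which is near the 23.0% of protein-coding genes. Protein-coding genes with no other protein-coding midpoint within 50 kb were in a LAD in 31.1% of 6575 cases, and those with another in 19.1% of 13985. Genes of any class with no other gene within 50 kb were inside in 53.2% of 6667 cases. In loci of 2 to 4 genes, 3 of 42 tRNA genes were inside (7.14%). In the 13 loci of 5 or more genes, which held 252 tRNA genes or 65.3% of all, 1 was inside. Counting each locus once, 24 of 123 were inside (19.5%), so the share of 6.99% over all 386 genes rests on the large loci. These counts by locus size were made after the members' positions were known.

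**Figure D1:**
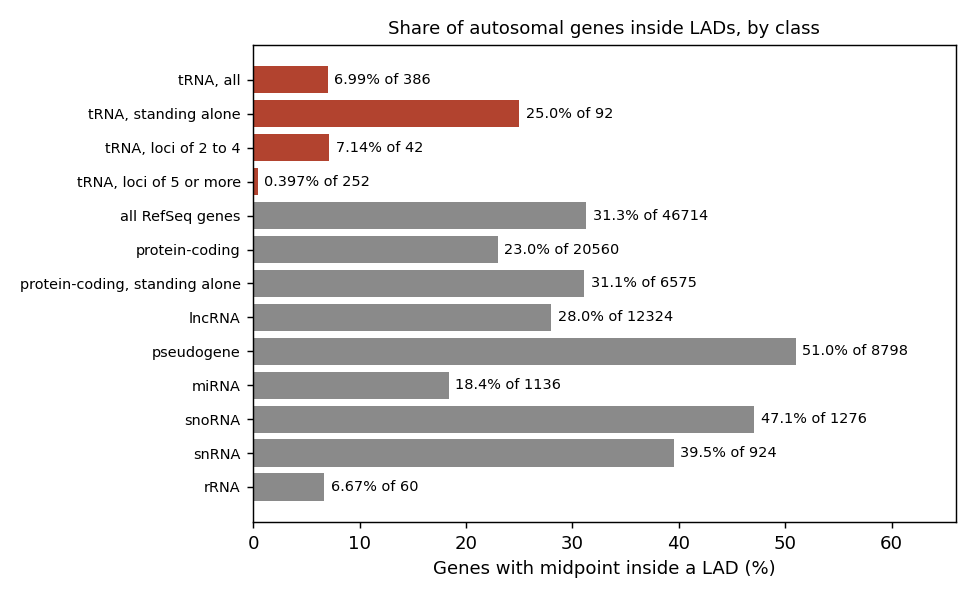
Bars give the percentage of autosomal genes with their midpoint inside a LAD, with the number of genes beside each bar. The red bars are tRNA genes, in all and by the number of tRNA genes in their locus, and the grey bars are other gene classes. The share is 25% for tRNA genes standing alone and under 1% for those in loci of 5 or more.

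Accordingly, 23 of the 27 members stood alone (85.2%), against 69 of the 359 tRNA genes outside (19.2%). Outside, 251 genes (69.9%) were in loci of 5 or more. The nearest other tRNA gene was at a median of 6885 kb from a member and of 1.42 kb from a non-member. Among genes that stand alone, these medians were 11421 kb inside and 6316 kb outside.

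Of the loci with 2 or more genes, 1 lay wholly inside a LAD. It consists of n-TCgca47 (chromosome 9, 104400120 to 104400191, mm10), n-TCgca53 (104404056 to 104404127) and n-TEttc8 (104408667 to 104408738), which are genes for cysteine and glutamate tRNAs. The locus spans 8.62 kb and sits in a domain of 1.07 Mb (104288755 to 105363751). Its genes are 111, 115 and 120 kb from the nearer border, so the whole locus is well beyond the 2.5 kb step in which the borders of the list are spaced. With gaps of at most 250 kb joined, the depths were 906, 910 and 915 kb. The nearest protein-coding gene was Acpp, a prostatic acid phosphatase, 62.4 kb from n-TCgca47. This domain was also the only autosomal one with more than 1 tRNA gene; the other 24 domains with a member had 1 each.

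A border of the list ran through a second locus. On chromosome 17, n-TKctt13 (23533962 to 23534034) is the first of 7 lysine, proline and arginine tRNA genes that span 16.4 kb. Its domain (21586521 to 23534013) ends inside the gene, 0.015 kb past the midpoint. The next gene, n-TKctt12 (23535332 to 23535404), is 1.36 kb outside the border, and the last of the 7 is 16.3 kb outside. Both n-TKctt13 and n-TKctt12 are closer to the border than the 2.5 kb step, so the list does not resolve on which side they fall. Moved inward by 2.5 kb, the border leaves n-TKctt13 outside, and moved outward by as much it takes in n-TKctt12.

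Close to the edge that defines membership, 4 of the 27 members were within 20 kb of a border, against 773 of 14622 genes of any class inside. After n-TKctt13 the nearest was n-TPtgg2, a proline tRNA gene (chromosome 11, 67291139 to 67291210), at 6.79 kb in a domain of only 0.095 Mb. Next were n-TDgtc1, for aspartate (chromosome 5, 100992874 to 100992945), at 13.4 kb, and n-TFgaa5, for phenylalanine (chromosome 14, 118089525 to 118089597), at 16.4 kb, or 609 kb with gaps of at most 250 kb joined. The fifth was n-TVcac1, for valine (chromosome 3, 59474926 to 59474997), at 36.5 kb in a domain of 0.255 Mb. Both n-TPtgg2 and n-TVcac1 are outside when only LADs of at least 500 kb are kept. On the outer side, 14 of 359 non-members were within 20 kb, against 832 of 32092 genes of any class outside. After n-TKctt12, the nearest were n-TLtag1 for leucine (chromosome 7, 120835479 to 120835560) at 5.78 kb and n-TPcgg1 for proline (chromosome 17, 23540915 to 23540986) at 6.94 kb. They were followed by n-TEctc11 for glutamate (chromosome 13, 21160785 to 21160856) at 10.0 kb and n-TFgaa4 for phenylalanine (chromosome 13, 21161405 to 21161477) at 10.7 kb. Apart from n-TLtag1, these non-members belong to large loci.

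Depth ranged from 0.015 kb to 4048 kb, with a median of 236 kb and quartiles of 118 and 730 kb over the 27 members. For the 4720 protein-coding genes inside LADs the median was 328 kb, with quartiles of 114 and 763 kb, and for all 14622 genes inside it was 336 kb. Members within 50 kb of a border made up 18.5% (5 genes), against 12.8% of protein-coding genes inside. More than 500 kb from any border were 9 members (33.3%), against 38.2% of protein-coding genes inside. As a percentage of the way from the border to the middle of the domain, depth had a median of 38.8% for members, 46.3% for protein-coding genes and 45.4% for all genes. The order of the median depths in kb depends on short gaps. With gaps of at most 250 kb joined, the median depth was 908 kb for the then 30 tRNA genes inside, 612 kb for protein-coding genes and 626 kb for all genes inside, so the tRNA genes then had the higher median.

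**Figure D2:**
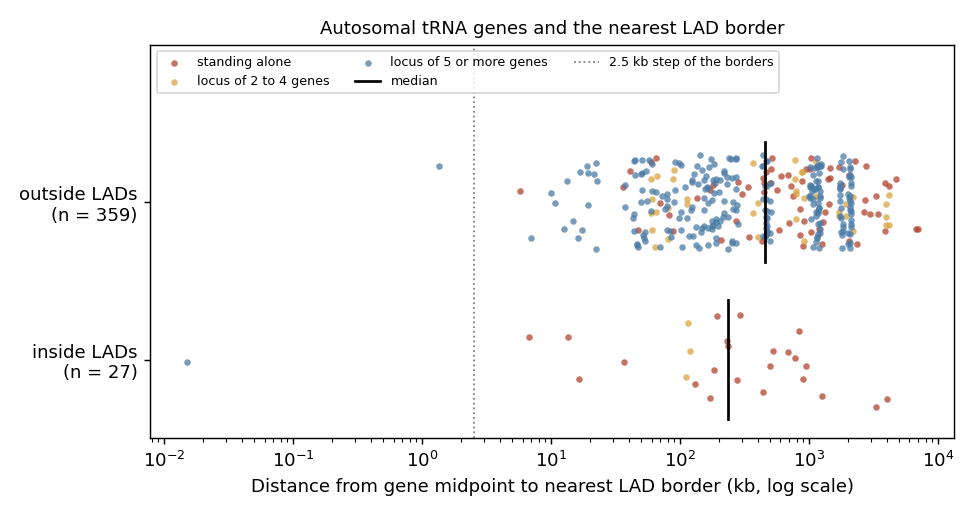
Each point is an autosomal tRNA gene, placed on the log scale by its distance in kb to the nearest LAD border and coloured by the size of its locus, with vertical scatter only to separate points. Black lines are medians, 236 kb for the 27 genes inside and 458 kb for the 359 outside, and the dotted line is the 2.5 kb step of the borders. The inside row is mostly single genes, and the outside row holds dense columns from large loci.

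The deepest members were spread over chromosomes. The lysine tRNA gene n-TKctt7 (chromosome 1, 110904747 to 110904819) was 4048 kb from a border in the longest autosomal domain (106857163 to 118257126, 11.4 Mb). For asparagine, n-TNgtt2 (chromosome 15, 16275950 to 16276023) was 3332 kb deep in a domain of 8.90 Mb. The valine gene n-TVcac5 (chromosome 6, 10100371 to 10100443) was 1256 kb deep in 2.96 Mb. These were the 3 members beyond 1000 kb. They were followed by the leucine gene n-TLcag1 (chromosome 3, 24163025 to 24163107) at 940 kb and the isoleucine gene n-TIaat1 (chromosome 16, 75434179 to 75434252) at 898 kb. This order depends on short gaps: with gaps of at most 250 kb joined, n-TIaat1 was deepest, at 8182 kb, and n-TLcag1 was at 1845 kb. Relative to the length of its domain, n-TDgtc10 for aspartate (chromosome 11, 7869777 to 7869848) was the most central, at 96.2% of the way to the middle of a domain of 1.08 Mb.

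**Figure D3:**
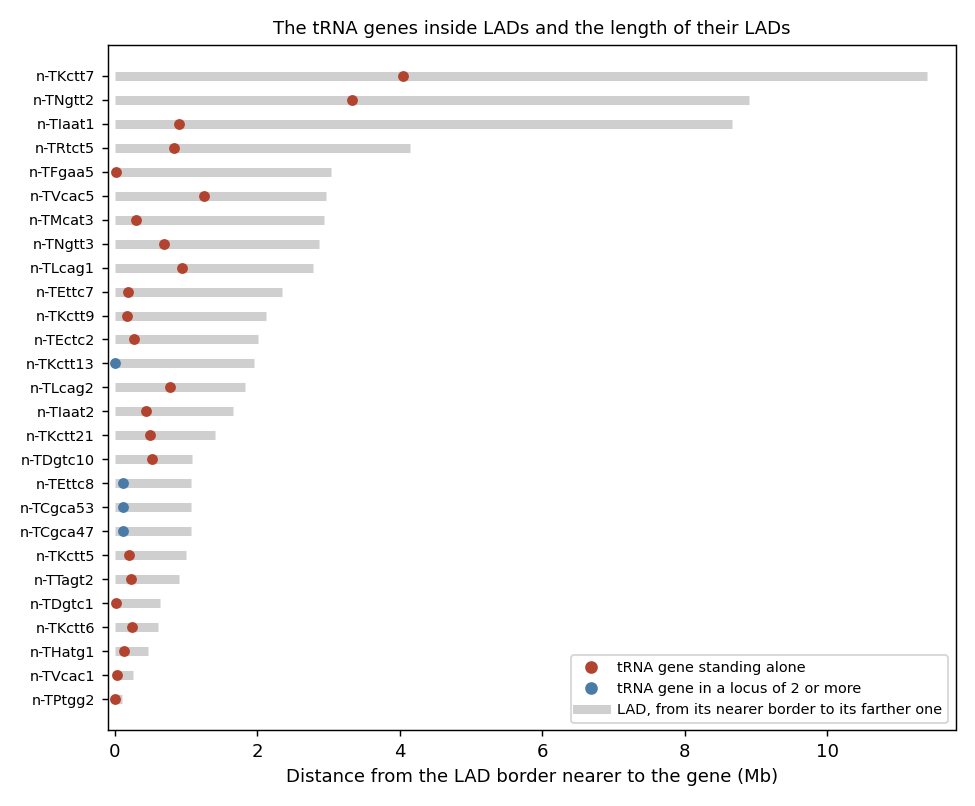
Each row is a member, and its grey bar is the length of its LAD in Mb, drawn from the border nearer to the gene; the point marks the gene. Red points stand alone and blue points have another tRNA gene within 50 kb. The longest bar is the 11.4 Mb domain of n-TKctt7 and the shortest the 0.095 Mb domain of n-TPtgg2.

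Domains with a tRNA gene were long. The 25 such domains were 2.22% of the autosomal ones, ranged from 0.095 to 11.4 Mb, and had a median of 1.95 Mb, against 0.544 Mb for all 1128. With gaps of at most 250 kb joined, these medians were 3.77 and 1.34 Mb. Long domains offer more room to any gene: the length that divides the covered autosomal bases into equal parts was 2.10 Mb. The domain of a member had a median length of 1.82 Mb, that of a protein-coding gene 1.88 Mb, and that of any gene 1.88 Mb. Of the members, 74.1% were in domains measuring 1 Mb or more, as were 73.5% of the protein-coding genes and 74.4% of all genes inside LADs. By domain length the members were therefore placed much like the other genes in LADs.

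Members were found for 14 of the 20 amino acids and on 16 of the 18 autosomes with a tRNA gene, with at most 4 on a chromosome. Chromosome 13, which had the most tRNA genes, 105, held 1 member. Chromosomes 2 and 19 had 8 and 10 tRNA genes and no member. At the share of 6.99% over all 386 tRNA genes, counts this small can easily hold none. No member served alanine, glutamine, glycine, serine, tryptophan or tyrosine, which together had 104 autosomal genes.

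Lysine had the most members. Of 23 genes with the lysine anticodon CTT, 6 were inside (26.1%), the highest share among the 30 anticodons with 5 or more genes. Besides n-TKctt7 and n-TKctt13 these were n-TKctt9 (chromosome 3, 3149493 to 3149565) at a depth of 171 kb, n-TKctt21 (chromosome 10, 87829886 to 87829958) at 493 kb (909 kb with gaps of at most 250 kb joined), n-TKctt5 (chromosome 11, 74137315 to 74137387) at 193 kb and n-TKctt6 (chromosome 13, 4224148 to 4224220) at 236 kb. The border nearer to n-TKctt9 is the start of its domain at 2978602, the lowest start of any autosomal domain. No domain of the list lies before it, so 171 kb may not be a distance to a measured border. Its other border is at 5096094. Of the 10 lysine CTT genes that stand alone, 5 were inside and 5 outside, so the sides were even. The lysine members were on different chromosomes, each in its own domain. The list does not resolve the side of n-TKctt13, and without it the lysine CTT share would be below the 25% of glutamate TTC. For comparison, the share inside was 31.3% over all autosomal genes and 23.0% over protein-coding genes.

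Glutamate followed with 3 members of 20 genes. With anticodon TTC, 2 of 8 genes were inside (25%): n-TEttc8 of the chromosome 9 locus and n-TEttc7 (chromosome 7, 58399315 to 58399386), 183 kb deep in a domain of 2.34 Mb (2157 kb deep with gaps of at most 250 kb joined). With anticodon CTC it was 1 of 12, n-TEctc2 (chromosome 12, 42415075 to 42415146), 275 kb deep, or 1295 kb with those gaps joined. Leucine CAG and arginine TCT shared the next place with 20% each. For leucine CAG these were n-TLcag1 and n-TLcag2 (chromosome 8, 38213201 to 38213283), which was 775 kb deep (1048 kb with those gaps joined), and the other 8 genes of that anticodon were outside, none of them standing alone.

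The arginine member was n-TRtct5 (chromosome 1, 173390329 to 173390402), 836 kb deep in a domain of 4.14 Mb (172554455 to 176691941). This gene, also known as n-Tr20, is the arginine tRNA gene with expression largely limited to the nervous system. It is 74 bp long; of the other 4 genes of that anticodon, all outside, 2 had the most common length, 86 bp. On the same chromosome the histidine gene n-THatg1 (171669439 to 171669511) was 130 kb deep in a domain of 0.465 Mb, and it is outside when only LADs of at least 500 kb are kept. It was the only annotated autosomal tRNA gene with the histidine anticodon ATG, whereas the 10 histidine genes with the anticodon GTG were outside. Every other member had copies of its anticodon outside, from 4 for arginine TCT to 55 for cysteine GCA.

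The remaining members were scattered in the same way. For asparagine GTT, 2 of 13 genes were inside: n-TNgtt2 and n-TNgtt3 (chromosome 1, 188941406 to 188941479), 685 kb deep. For isoleucine AAT it was 2 of 15, n-TIaat1 and n-TIaat2 (chromosome 4, 27904779 to 27904852), the latter 436 kb deep. Aspartate GTC had 2 of 16 and valine CAC 2 of 11, all described above. Single members were n-TTagt2 for threonine (chromosome 14, 58818153 to 58818226) at 230 kb and n-TMcat3 for methionine (chromosome 15, 69396623 to 69396694) at 293 kb. The depth of n-TMcat3 was 1106 kb with gaps of at most 100 kb joined and 2126 kb at 250 kb, and that of n-TIaat2 1439 kb at 250 kb. Cysteine GCA, the anticodon with the most genes, had 2 of 57 inside, which was the lowest share among those anticodons of 5 or more genes that had a member. The other 16 such anticodons had none, among them glycine GCC (14 genes), alanine AGC (13) and tyrosine GTA (10). Of these, 4, 2 and 0 genes stood alone. Over all 386 tRNA genes the share was 6.99%, at which groups of this size can easily hold no member.

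**Figure D4:**
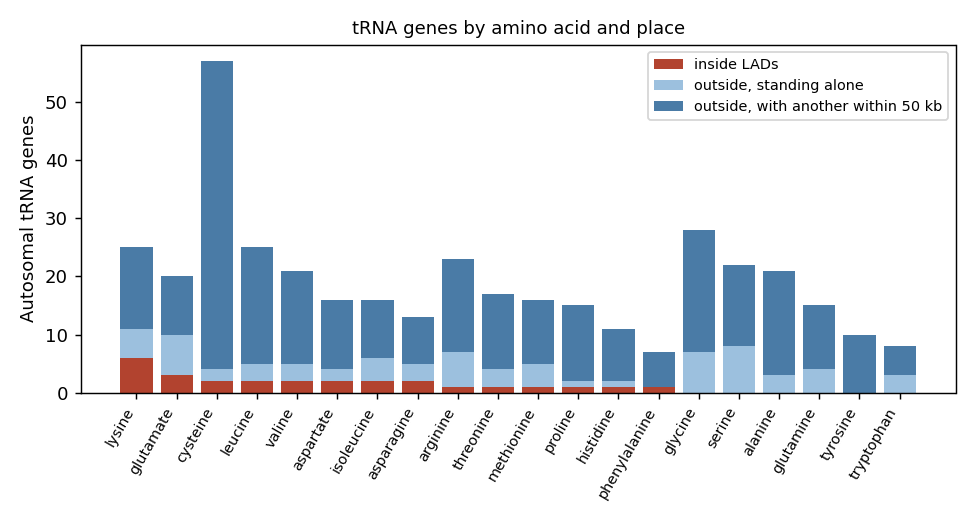
Stacked bars count autosomal tRNA genes by amino acid: red inside LADs, light blue outside and standing alone, dark blue outside with another tRNA gene within 50 kb. Lysine has 6 genes inside, and the tallest bar, cysteine with 57 genes, has 2.

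In length the members looked like their copies outside. They measured 72 to 83 bp, and 24 of the 26 with a copy of their anticodon outside had the most common length of those copies. The exceptions were n-TRtct5 and n-TVcac1, which has 72 bp where the 9 valine CAC genes outside have 73 bp. Among non-members with another copy outside, 319 of 356 had the most common length of the other copies.

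Protein-coding genes were sparse around members. Within 100 kb of a member's midpoint there were 0 to 7 protein-coding midpoints, with a median of 0 and quartiles of 0 and 2. Around the 359 non-members the median was 5, with quartiles of 2 and 7. In 14 members (51.9%) the window was empty, against 7.24% of non-members, whose counts ran from 0 to 20, so the groups overlap. Many non-members share 1 neighbourhood in a large locus. With 1 gene per locus the medians were 0 inside and 4 outside. Among genes that stand alone they were 0 and 3, with 60.9% and 4.35% of windows empty. For comparison, protein-coding genes inside LADs had a median of 2 others in the same window and those outside had 4, and 25.4% and 11.1% had none. Gene density and LADs go together in this list, so their parts in this difference cannot be told apart. The most gene-rich surroundings of a member were those of n-TKctt5, with 7 protein-coding genes within 100 kb, and the closest of these was the olfactory receptor gene Olfr401, at 15.1 kb. In 5 of the 25 domains with a member, those of n-TIaat2, n-TDgtc1, n-TDgtc10, n-TEctc2 and n-TTagt2, there was no protein-coding midpoint. The same count was not made over all 1128 autosomal domains, so whether this is unusual is not known.

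A protein-coding gene spanned 7 of the 27 members (25.9%), against 26 of 359 non-members (7.24%). Among genes that stand alone this was 30.4% inside and 17.4% outside. Among the hosts were Cdh19, a cadherin, for n-TKctt7 and Aim2, a sensor of cytosolic DNA, for n-TRtct5. Others were Naaladl2 for n-TLcag1, the sarcoglycan gene Sgcz for n-TLcag2, the muscle myosin gene Myh8 for n-TPtgg2, and the axon guidance receptor gene Robo2 for n-TIaat1. Their lengths ran from 31.5 kb (Myh8) to 1555 kb (Robo2), against a median of 10.3 kb for all protein-coding genes inside LADs; a longer gene is more likely to span any point. All 7 hosts had their own midpoint in a LAD. Exon positions were not used here, so whether these tRNA genes are in introns is not stated. The lysine gene n-TKctt21 lay within the antisense transcript Igf1os, 28.3 kb from Igf1.

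Some large loci outside were close to a domain. Of the 12 loci of 5 or more tRNA genes that were wholly outside, 6 had their nearest gene within 100 kb of a border, 3 of these on chromosome 13, and 5, with 79 tRNA genes, filled part of a gap under 1 Mb between neighbouring domains. Gaps under 1 Mb held 18.6% of the bases in autosomal gaps. The count within 100 kb takes the nearest gene of each locus, which favours short distances in loci of many genes. It was not made for other genes. By gene, 12.0% of the 251 tRNA genes outside in loci of 5 or more were within 50 kb of a border. Over all genes outside it was 6.82%, and over protein-coding genes outside 5.66%. On chromosome 13, the locus from 21160785 to 21326789 has 24 genes of 9 amino acids and sits in a gap of 0.412 Mb, with its first gene 10.0 kb from the border. The next large locus on that chromosome (21848022 to 22050767) has 32 genes in a gap of 0.442 Mb and comes to 22.5 kb from a border. A locus of 9 genes (23270421 to 23317538) came to 22.2 kb from a border at the edge of a gap of 15.8 Mb. Smaller loci in short gaps were those on chromosome 19 (8 genes, gap of 0.337 Mb), chromosome 14 (7 genes, 0.365 Mb) and chromosome 11 (8 genes, 0.672 Mb).

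Other large loci were farther from a domain. The 36 genes on chromosome 13 from 23397060 to 23530419 were 149 kb or more from a border, the 5 on chromosome 5 (125404250 to 125409543) 232 kb and the 25 on chromosome 1 (171033942 to 171111515) 428 kb. The biggest locus, 48 cysteine tRNA genes on chromosome 6 (48133937 to 48363603), was 1004 kb or more from a border. The 25 genes on chromosome 3 (96322074 to 96501518) were at least 2009 kb away and the 18 on chromosome 11 (69037003 to 69125248) at least 1739 kb. Over all 359 non-members the median distance to a border was 458 kb, against 810 kb for 15840 protein-coding genes outside. Keeping only LADs of at least 500 kb moved these medians to 793 and 1216 kb, and left 5 large loci within 100 kb of a border. With all LADs, for the 69 that stand alone it was 850 kb and for the 251 in loci of 5 or more 256 kb. A few loci set these values, since genes of 1 locus share their distance.

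The genes for the machinery that makes and uses tRNAs were listed as a comparison. Of 13 subunits of RNA polymerase III, 1 had its midpoint in a LAD, Polr3k (chromosome 2, 181864360 to 181870830), 164 kb from a border. None of 12 factors (such as Brf1, Bdp1, Gtf3c1 and the repressor Maf1), 20 genes of tRNA maturation and export (such as Elac2, Trnt1 and Xpot) or 20 cytosolic tRNA ligases was inside, where 23.0% of protein-coding genes were. The nearest of these to a border was Pop4, a subunit of RNase P, at 30.4 kb outside.

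Other RNA polymerase III genes were looked up in the same way. None of 10 single-copy or low-copy genes, among them Rn7sk, Rmrp, Rpph1 and Bc1, was inside, where 31.3% of all autosomal genes were. However, Rnu6 on chromosome 17 (13432033 to 13432139) was only 0.540 kb outside a border and thus within the step of the list. The 64 autosomal 5S ribosomal RNA genes, named n-R5s and a number, form 1 large locus and single genes. All 41 genes of the locus on chromosome 8 were outside, and of the 23 standing alone 13 were inside (56.5%). The latter share is near the 53.2% of genes of any class with no other gene within 50 kb. In all, 13 of 64 (20.3%) were inside; 15 of the 64 carry the biotype pseudogene, 9 of them inside, and of the 49 annotated as ribosomal RNA 4 were inside.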

How the data were processed

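The authors deposited 1 BED list of 1437 LADs, whose values are start and end positions in base pairs (no other unit) with a constant score of 0. Per the submitters' processing notes, Bowtie2 and mm10 were used; the domain caller, its threshold and the use of IgG are not given in the sources used here. All domain lengths (100%) lie within 125 bp of a multiple of 2.5 kb. Gene positions, symbols and biotypes came from the RefSeq gene table for GRCm38.p6, whose chromosomes are those of mm10; it gives no strand or exons, and tRNA sequences were not analysed here. The table's 328 autosomal rows of all kinds that start before 2.9 Mb were left out, because the lowest autosomal domain starts at 2978602. These include 5 tRNA genes, listed on chromosome 11, of which 4 repeat placed genes at a constant offset (48845258 bp). The symbol n-Tcgca44 was read as cysteine GCA.

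Midpoints, border distances and loci were computed with Python 3.11.15 and pandas 2.3.3 and tested on simulated data. No test was run: the rule uses the measured domains, and there is 1 merged list. All members are named, as the rule for 40 or fewer sets. Members and lists were chosen with earlier results of these data known. Alternatives were other gene positions, domain lists, gene sets, chaining distances and windows. The name of 1 host gene is not reported here.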

Additional observations from a re-analysis of the deposited data

How the results depend on the processing

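Of 82 recomputed values on shares, medians and counts, 74 stayed within the exact binomial interval of the reported value or within 1.5 times a reported count. That interval treats genes as independent, which genes of 1 locus are not, so it served only as a yardstick. The share without chromosome 13, 9.25%, was counted as unmoved by it. The share inside, 6.99%, moved to 19.5% with 1 gene per locus and to 10.4% with X added. With gaps of at most 250 kb joined, the median depth moved to 908 kb and the median length of domains with a tRNA gene to 3.77 Mb, for 30 members. Keeping only LADs of at least 500 kb moved the median distance outside to 793 kb. The median number of protein-coding neighbours was 2 outside within 50 kb, and 4 inside and 31 outside within 500 kb; the window itself sets these. Of 162 recomputed depths of single members, 15 moved by more than 2.5 kb, all with gaps joined (n-TEttc7 most after n-TIaat1, to 2157 kb), and 5 changed side, written here as negative depths. With only LADs of at least 500 kb, n-THatg1 was at -885 kb, n-TVcac1 at -2016 kb and n-TPtgg2 at -431 kb, the last also with LADs of at least 100 kb (-431 kb). With borders moved inward by 2.5 kb, n-TKctt13 was at -2.48 kb. Keeping the rows listed before 2.9 Mb gave 6.91%; this and the values for genes standing alone were chosen after seeing the data. The B box alternatives were not run without sequence. No paired analysis was possible because the list is merged and no result comes from a test. The read depth is unknown.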

Other observations

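Outside the autosomes, the X chromosome differed in the counts. Of its 17 tRNA genes, 15 were inside a LAD (88.2%), where 44.4% of all 2500 genes on X were. The count rests mainly on 12 alanine tRNA genes with the anticodons TGC and CGC, which lie between 136357602 and 136590436 in 1 domain of 0.287 Mb (136323899 to 136611397). They form 2 loci of 8 and 4 genes at depths of 21.0 to 107 kb. No autosomal locus of 5 or more was wholly inside a domain, and no autosomal alanine gene was a member, so the locus of 8 on X was the only such locus wholly inside a LAD on the autosomes and X. The other 3 were n-TPtgg3 for proline, 648 kb deep, n-TRcct4 for arginine, 55.8 kb deep, and n-TVtac3 for valine, 202 kb deep. The lysine gene n-TKctt19, at 76.9 kb outside, and the glutamine gene n-TQttg1, at 195 kb outside, were the exceptions. The difference between X and the autosomes was seen in these counts and was not tested.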
